A study of Homo sapiens with 12 samples.

Results

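The cholesterol and fatty acid synthesis genes examined here are 33 named genes of sterol and fatty acid synthesis, of the control of these pathways and of sterol export, of which 30 were measured among 19775 genes. A gene was taken as the mean of the probe sets that name it and no other gene, under its current symbol. FDFT1, CYP51A1 and FADS1 had no such probe set and were not analysed here. The 30 comprised 7 genes of the mevalonate arm, 9 of the sterol arm, 4 of the control of SREBP (sterol regulatory element-binding protein), 3 of sterol transport and 7 of fatty acid synthesis.

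RNA came from IMR-90 fibroblasts, a human lung strain that divides a limited number of times, and was hybridised to 12 Affymetrix arrays, 3 for each of 4 groups. At 3% oxygen these were old nonsenescent cells, at population doubling 53, and young cells, at doubling 30. At 20% oxygen they were senescent cells, which had reached doubling 48, and again young cells at doubling 30. All groups grew in the same medium with fetal bovine serum and were collected before full confluence. Cells at 3% oxygen had an incubator of their own, so oxygen and incubator cannot be told apart, and oxygen, senescence and population doubling differ together between the 2 late-passage groups. Each group is 1 cell line, and the labels call the replicates biological without saying whether they were separate cultures, so p values may measure technical spread alone.

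Animal cells build cholesterol from acetyl-CoA through mevalonate, isoprenoids and squalene, and the same precursor feeds fatty acid synthesis. When membrane sterol is low, SCAP carries the SREBP precursors, encoded by SREBF1 and SREBF2, out of the endoplasmic reticulum, and the cleaved factors activate most genes of both pathways. INSIG1 holds SCAP back and is itself an SREBP target. When sterol is plentiful, oxysterols activate the liver X receptors, which induce the export pumps ABCA1 and ABCG1. Several steps of the sterol arm, among them those of SQLE, MSMO1 and SC5D, use molecular oxygen.

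Values are log2 signals from which the median of the 12 arrays has been taken for each probe set. Differences between groups can be read from them and absolute levels cannot, so the fibroblast identity of the cells could not be checked against markers. In bulk RNA, fewer cells that express a gene and less RNA per cell cannot be told apart. Numbers after ± are standard errors of a log2 change from limma, with 3 arrays per group, unless SD is named; a gene was called at an adjusted p under 0.05 over all 19775 genes. The number of arrays limits the precision. Within groups, the arrays' root mean square deviation from their group mean was 0.099 to 0.209 on the log2 scale. The plot of all members shows MSMO1, HMGCS1, INSIG1 and STARD4 low and ABCG1 high on the arrays at 3% oxygen.

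**Figure D1:**
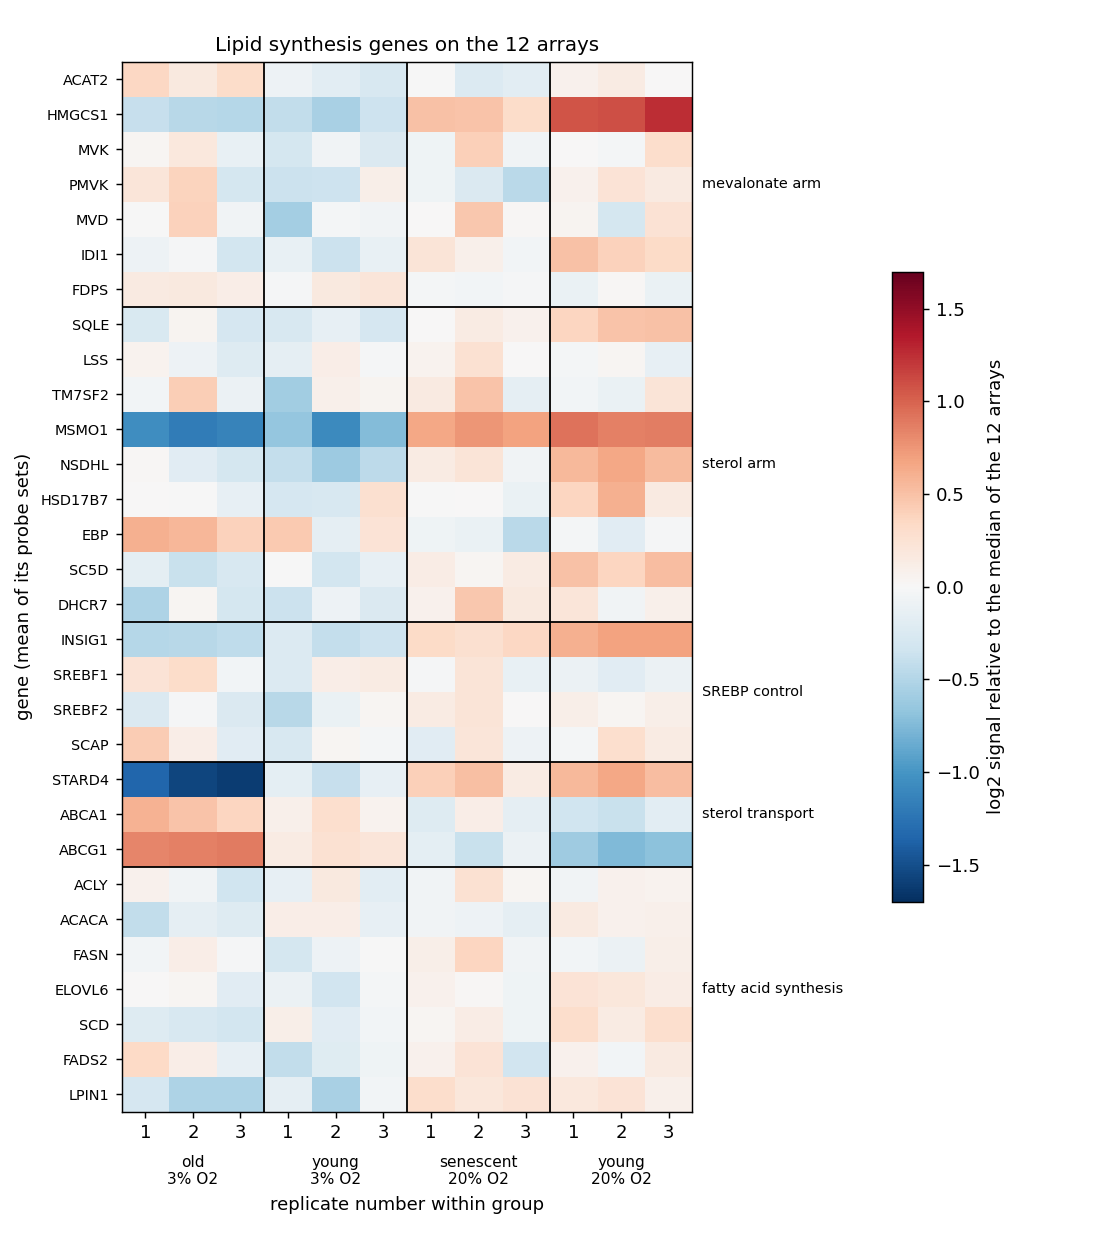
Log2 signal of the 30 measured genes, relative to the median of the 12 arrays, by array (columns, grouped as old 3%, young 3%, senescent 20% and young 20% oxygen) and gene (rows, grouped by role). MSMO1 ranges from -1.19 in old cells at 3% oxygen to 0.92 in young cells at 20% oxygen, while most fatty acid synthesis genes stay pale.

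Young cells at 3% oxygen had less RNA of 8 lipid genes than young cells at 20% oxygen and more of 2. The 8 that fell were HMGCS1, IDI1, SQLE, MSMO1, NSDHL, SC5D, INSIG1 and STARD4, by 1.52- to 3.28-fold. The 2 that rose were the export pumps ABCA1 (1.36-fold) and ABCG1 (1.84-fold). In this comparison 6.84% of all genes were called lower and 4.96% higher (11.8% in all). The median log2 change was -0.29 over the 30 members and -0.03 over all genes, and 24 of the 30 were below 0. Groups did not overlap for 18 of the 30, against 29.7% of all genes.

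HMGCS1, the synthase that makes HMG-CoA at the start of the mevalonate arm, stood at -0.42, -0.55 and -0.35 in young cells at 3% oxygen and at 1.08, 1.09 and 1.26 in young cells at 20% oxygen. It stood at -0.40, -0.47 and -0.48 in old cells at 3% oxygen and at 0.50, 0.49 and 0.31 in senescent cells at 20% oxygen. All 6 arrays at 3% oxygen lay below all 6 at 20%, and the young cells at 20% oxygen were highest. The change between young cells was -1.58 ± 0.09 (2.99-fold, adjusted p = 3.02e-07), and its 2 probe sets gave -1.16 and -2.00.

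Of the other mevalonate arm genes, the isomerase of isopentenyl diphosphate IDI1 stood at -0.13, -0.36 and -0.12 in young cells at 3% oxygen, against 0.49, 0.39 and 0.32 in young cells at 20%. Its late-passage values were -0.09, -0.02 and -0.32 in old cells at 3% and 0.22, 0.08 and -0.05 in senescent cells at 20%. The young groups were thus apart, and the late ones overlapped. IDI1 fell by 0.61 on the log2 scale (SE 0.11, adjusted p = 0.00302), but its 4 probe sets disagreed, at -1.07, -1.54, 0.21 and -0.04. The first pair and the last carry the suffix of probe sets that can match other transcripts as well, so the size of this change is uncertain. The kinases MVK and PMVK, the decarboxylase MVD, the prenyl synthase FDPS and the thiolase ACAT2 were not called in young cells (log2 changes -0.36 to 0.19).

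In the sterol arm, the methyl sterol monooxygenase MSMO1 stood at -0.66, -1.08 and -0.74 in young cells at 3% oxygen and at 0.92, 0.86 and 0.87 in young cells at 20%. Old cells at 3% gave -1.06, -1.19 and -1.14, and senescent cells at 20% gave 0.66, 0.75 and 0.69. The 2 oxygen levels were separated by a wide gap at both passages. Between young cells its single probe set changed by -1.71 ± 0.11 (3.28-fold, adjusted p = 3.90e-07). No other member changed more as a mean of its probe sets, but single probe sets of ABCG1 (2.63), HMGCS1 (-2.00) and INSIG1 (-1.86) did.

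NSDHL, the dehydrogenase that acts beside MSMO1 in removing methyl groups from the sterol ring, stood at -0.40, -0.62 and -0.44 in young cells at 3% oxygen and at 0.55, 0.65 and 0.54 in young cells at 20%. The late groups stood closer together, at 0.02, -0.19 and -0.30 in old cells at 3% and 0.14, 0.22 and -0.05 in senescent cells at 20%. Young cells were apart and late-passage cells overlapped. NSDHL fell by 1.07 (SE 0.11, 2.1-fold, adjusted p = 2.71e-05), and both probe sets gave similar values (-1.13 and -1.01).

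SQLE, the squalene epoxidase, stood at -0.27, -0.14 and -0.29 in young cells at 3% oxygen, against 0.37, 0.48 and 0.49 in young cells at 20%. Its values were -0.26, 0.04 and -0.29 in old cells at 3% and 0.00, 0.14 and 0.08 in senescent cells at 20%. SQLE was highest in young cells at 20% oxygen, and the late groups overlapped. The change between young cells was -0.68 ± 0.10 (1.61-fold, adjusted p = 6.74e-04), with 4 probe sets from -1.18 to -0.23.

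The desaturase SC5D stood at -0.01, -0.31 and -0.14 in young cells at 3% oxygen, against 0.50, 0.37 and 0.53 in young cells at 20%. Old cells at 3% gave -0.16, -0.38 and -0.27, and senescent cells at 20% gave 0.12, 0.03 and 0.13. Neither pair of groups overlapped. Between young cells SC5D changed by -0.62 ± 0.10 (adjusted p = 0.00123), with -1.07 on one probe set and -0.17 on the other. The remaining 5 sterol arm genes, the cyclase LSS, the reductases TM7SF2, HSD17B7 and DHCR7 and the isomerase EBP, were not called in young cells, with log2 changes of -0.47 (HSD17B7, adjusted p = 0.0668) to 0.26 (EBP, adjusted p = 0.338).

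INSIG1, the sterol-sensing partner of SCAP, stood at -0.23, -0.41 and -0.35 in young cells at 3% oxygen and at 0.60, 0.68 and 0.68 in young cells at 20%, and at -0.48, -0.47 and -0.43 in old cells at 3% and 0.33, 0.27 and 0.36 in senescent cells at 20%. All arrays at 3% oxygen lay below all arrays at 20%. INSIG1 fell by 0.99 between young cells (SE 0.08, 1.98-fold, adjusted p = 4.13e-06), although its 3 probe sets gave -0.13, -1.86 and -0.96.

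The RNAs of the SREBP factors themselves and of their escort were not called in any comparison. SREBF2, which encodes the factor known for the cholesterol genes, stood at -0.47, -0.12 and 0.04 in young cells at 3% oxygen and at 0.11, 0.04 and 0.10 in young cells at 20% (log2 change -0.26 ± 0.12, adjusted p = 0.234). Its late-passage values were -0.24, -0.02 and -0.25 in old cells at 3% and 0.14, 0.21 and 0.01 in senescent cells at 20% (-0.29 ± 0.12, adjusted p = 0.20). Neither pair overlapped, though the nearest young arrays stood at 0.0377 at 3% oxygen and 0.0382 at 20%, and most of the shift lay on 1 of its 3 probe sets (-0.68, against -0.12 and 0.00 between young cells).

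SREBF1, which encodes the factor known for the fatty acid genes, stood at -0.23, 0.12 and 0.14 in young cells at 3% oxygen, -0.10, -0.20 and -0.11 in young cells at 20%, 0.23, 0.31 and -0.04 in old cells at 3% and -0.02, 0.22 and -0.13 in senescent cells. Its groups overlapped in all 4 comparisons between groups (lowest adjusted p = 0.546). SCAP stood at -0.27, 0.03 and -0.03 in young cells at 3%, -0.03, 0.29 and 0.14 in young cells at 20%, 0.44, 0.11 and -0.19 in old cells at 3% and -0.20, 0.21 and -0.09 in senescent cells (lowest adjusted p = 0.44). The proteins and their cleavage were not measured.

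Among the transport genes, the cholesterol carrier STARD4 stood at -0.16, -0.39 and -0.13 in young cells at 3% oxygen and at 0.55, 0.65 and 0.52 in young cells at 20%. Old cells at 3% gave -1.35, -1.57 and -1.61, and senescent cells at 20% gave 0.40, 0.51 and 0.13. The old cells at 3% were lowest by a wide margin. The change between young cells was -0.80 ± 0.12 (1.75-fold, adjusted p = 5.74e-04).

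ABCG1, which moves cholesterol to high-density lipoprotein, ran in the opposite direction. It stood at 0.14, 0.26 and 0.20 in young cells at 3% oxygen and at -0.61, -0.74 and -0.70 in young cells at 20%, and at 0.84, 0.86 and 0.88 in old cells at 3% and -0.17, -0.38 and -0.10 in senescent cells. No 2 of the 4 groups overlapped. ABCG1 rose by 0.88 ± 0.09 between young cells (adjusted p = 3.30e-05); 1 probe set gave 2.63 and the other 3 gave 0.48, 0.25 and 0.17, so the mean of 0.88 is well below the change of the most responsive probe set.

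ABCA1, which loads cholesterol onto apolipoprotein A-I, stood at 0.09, 0.29 and 0.06 in young cells at 3% oxygen and at -0.34, -0.38 and -0.18 in young cells at 20%. Its late-passage values were 0.59, 0.48 and 0.37 in old cells at 3% and -0.21, 0.11 and -0.15 in senescent cells. Groups of different oxygen did not overlap at either passage. ABCA1 rose by 0.45 ± 0.11 between young cells (adjusted p = 0.0204), with 1.03 and 0.78 on 2 probe sets and 0.09 and -0.11 on the others. That call was lost without young replicate 1 or 2 at 20% oxygen or young replicate 2 at 3% oxygen (adjusted p = 0.0798, 0.0848 and 0.0816).

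**Figure D2:**
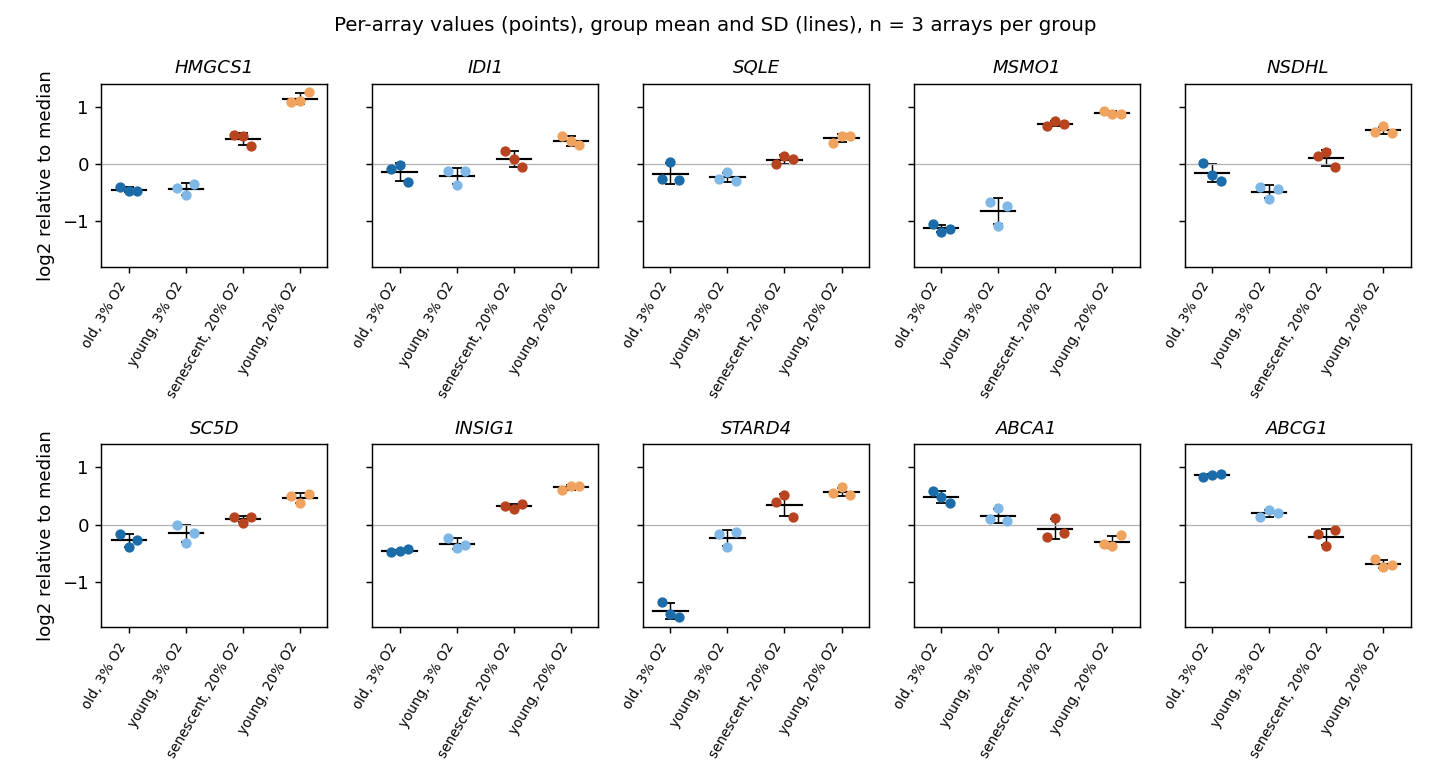
Log2 signal relative to the median for the 10 genes called between young cells at 3% and 20% oxygen, with 1 point per array, the group mean (bar) and SD (whisker), n = 3 arrays per group. The first 8 panels run from low values at 3% oxygen to high values in young cells at 20% oxygen, and ABCA1 and ABCG1 run the other way.

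Fatty acid synthesis showed no gene called by limma between young cells, with 3 of 7 at an unadjusted p under 0.05. Of all 19775 genes, 4549 were under it in this comparison. All 7 measured genes were below 0, with log2 changes from -0.42 (LPIN1) to -0.08 (ACACA) and a median of -0.28. ELOVL6, an elongase of long chains, had -0.34 ± 0.10 (adjusted p = 0.0525), the phosphatidate phosphatase LPIN1 -0.42 ± 0.13 (adjusted p = 0.0547) and the desaturase SCD -0.28 ± 0.10 (adjusted p = 0.0921). The citrate lyase ACLY, the carboxylase ACACA, the synthase FASN and the desaturase FADS2 had adjusted p values of 0.285 (FADS2) to 0.753 (ACLY). Probe sets were split here too: ELOVL6 had -0.73 on 1 of 3 and SCD had -0.58 and -0.41 on 2 of 4. When each gene was read from its most variable probe set, ELOVL6, SCD and LPIN1 were called (adjusted p = 0.0336, 0.0241 and 0.0348). That probe set was chosen by its SD over the same arrays, group differences included, so calls on it add no support. Array weights called the same 3 on the mean of their probe sets (0.0128, 0.0092 and 0.0205), together with ACAT2 (-0.30) and FDPS (0.25), which made 15 members called between young cells. On its most variable probe set SCD was also lower in the other 3 comparisons of groups. The log2 changes were -0.76 in old against senescent cells (adjusted p = 3.90e-04) and -0.44 in senescent against young cells (adjusted p = 0.0141). Old against young cells at 3% gave -0.79 (adjusted p = 0.0019). Without array weights the mean of its 4 probe sets was called in none, and this probe set was singled out after its values were seen.

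Promoter sequences were compared because SREBP acts on target promoters together with the factors NF-Y and SP1. Sequences of 300 bases, from 250 before to 50 after the start, were found in RefSeq (GRCh38.p14) for 28 of the 33 genes. The NF-Y box CCAAT, on either strand (reverse ATTGG), was in 17 of these 28 (60.7%) and in 35.7% of all 27305 promoters. The GC box GGGCGG, which SP1 can bind, was in 26 of 28 (92.9%) and in 44.6% of all. The sterol element searched, TCACNCCAC, was in 1 of 28 and in 1.15% of all. Both strands were searched for each motif, a box on one strand can share bases with a box on the other, and a match is a run of letters, not a shown binding site. Of the 7 promoters of genes that fell in young cells at 3% oxygen, 6 held CCAAT (all but that of IDI1), as did 11 of 18 of the genes not called. Promoters are shown for HMGCS1, MSMO1, INSIG1 and STARD4, which with SC5D were lower at 3% oxygen at both passages. The SC5D promoter, which held 1 NF-Y box, is not shown. Also shown are those of SREBF2, which held the sterol element, and of ABCA1, which was higher and held no CCAAT. ABCA1 lacked the sterol element too, but 0 of the 7 promoters of genes that fell held it, so this does not set ABCA1 apart. Capitals mark the NF-Y boxes on either strand and the sterol element, each 5′ to 3′ on the gene's own strand.
HMGCS1 (chr5:43313363-43313662, minus strand): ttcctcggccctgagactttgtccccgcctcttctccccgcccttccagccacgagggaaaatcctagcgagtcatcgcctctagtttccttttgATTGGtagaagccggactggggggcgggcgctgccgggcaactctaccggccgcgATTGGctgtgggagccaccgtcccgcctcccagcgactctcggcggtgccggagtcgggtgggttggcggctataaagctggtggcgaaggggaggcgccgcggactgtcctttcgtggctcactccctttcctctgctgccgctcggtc
MSMO1 (chr4:165327419-165327718, plus strand): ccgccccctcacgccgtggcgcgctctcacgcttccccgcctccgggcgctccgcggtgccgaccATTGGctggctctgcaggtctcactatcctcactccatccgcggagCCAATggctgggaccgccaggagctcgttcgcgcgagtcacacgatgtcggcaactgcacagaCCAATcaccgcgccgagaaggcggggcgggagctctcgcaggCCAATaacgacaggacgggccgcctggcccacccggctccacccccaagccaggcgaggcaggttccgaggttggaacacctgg
INSIG1 (chr7:155297628-155297927, plus strand): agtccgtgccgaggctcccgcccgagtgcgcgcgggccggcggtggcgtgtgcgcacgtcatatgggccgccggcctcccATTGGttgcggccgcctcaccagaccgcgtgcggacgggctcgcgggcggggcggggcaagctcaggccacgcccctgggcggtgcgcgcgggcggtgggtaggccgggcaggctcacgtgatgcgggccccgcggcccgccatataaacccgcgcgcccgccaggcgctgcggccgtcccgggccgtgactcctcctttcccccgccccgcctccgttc
STARD4 (chr5:111512486-111512785, minus strand): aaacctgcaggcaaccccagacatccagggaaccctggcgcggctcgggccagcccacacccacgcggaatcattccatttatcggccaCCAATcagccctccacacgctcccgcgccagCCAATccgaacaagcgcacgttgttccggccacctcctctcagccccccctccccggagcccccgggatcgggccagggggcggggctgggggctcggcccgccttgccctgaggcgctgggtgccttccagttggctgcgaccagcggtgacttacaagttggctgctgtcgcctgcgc
SREBF2 (chr22:41832855-41833154, plus strand): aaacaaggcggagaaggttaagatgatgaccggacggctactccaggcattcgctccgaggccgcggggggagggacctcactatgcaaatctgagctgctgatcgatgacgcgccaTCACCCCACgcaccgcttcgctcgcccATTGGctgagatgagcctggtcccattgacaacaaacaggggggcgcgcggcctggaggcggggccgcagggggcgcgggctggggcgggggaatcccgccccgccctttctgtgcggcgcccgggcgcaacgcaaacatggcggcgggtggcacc
ABCA1 (chr9:104928106-104928405, minus strand): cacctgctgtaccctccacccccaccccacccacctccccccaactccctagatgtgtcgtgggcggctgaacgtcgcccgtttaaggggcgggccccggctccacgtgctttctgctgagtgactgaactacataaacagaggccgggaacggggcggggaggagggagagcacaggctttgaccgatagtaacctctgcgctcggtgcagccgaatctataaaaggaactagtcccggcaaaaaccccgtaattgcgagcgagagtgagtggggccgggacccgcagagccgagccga
MSMO1 held 4 NF-Y boxes within this window, HMGCS1 and STARD4 held 2 each and INSIG1 held 1, and in SREBF2 the sterol element began 133 bases before the start and the NF-Y box 106 bases before it.

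At late passage, old cells at 3% oxygen were set against senescent cells at 20%. Here 6 members were lower (HMGCS1, MSMO1, SC5D, INSIG1, STARD4 and LPIN1) and 4 were higher (ACAT2, EBP, ABCA1 and ABCG1). Of all genes, 4.41% were called lower and 6.59% higher. The median log2 change over the 30 members was -0.14, against -0.02 over all genes. Groups did not overlap for 15 of 30, against 24.3% of all genes.

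On the mean of each gene's probe sets STARD4, which has 1, differed most, at -1.86 ± 0.12 (3.62-fold lower in old cells at 3%, adjusted p = 3.63e-07), then MSMO1 at -1.83 ± 0.11 (3.55-fold, adjusted p = 1.71e-07); 1 probe set of ABCG1 differed more. HMGCS1 had -0.88 ± 0.09 (adjusted p = 3.81e-05) and INSIG1 -0.78 ± 0.08 (adjusted p = 3.12e-05). ABCG1 was 2.11-fold higher (1.08 ± 0.09, adjusted p = 5.31e-06), with 3.24 on 1 probe set and 0.21 to 0.54 on the other 3. ABCA1 was 1.48-fold higher (0.56 ± 0.11, adjusted p = 0.00523). SC5D had -0.37 ± 0.10 (adjusted p = 0.0342), but the call was lost in each of 6 fits that left out senescent replicate 1, 2 or 3, old replicate 2 or 3 or young replicate 1 at 20% oxygen (adjusted p = 0.055 to 0.139).

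LPIN1, whose phosphatase makes the diacylglycerol of triglycerides and which also acts in the nucleus, was the fatty acid group's single call. It stood at -0.28, -0.53 and -0.53 in old cells at 3% oxygen and at 0.30, 0.19 and 0.25 in senescent cells at 20%, with -0.15, -0.56 and -0.05 in young cells at 3% and 0.19, 0.23 and 0.08 in young cells at 20%. All arrays at 3% oxygen lay below all at 20%. The late difference was -0.69 ± 0.13 (adjusted p = 0.00293), with -1.13 and -0.89 on 2 probe sets and -0.06 on the other.

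EBP, the sterol isomerase, stood at 0.61, 0.57 and 0.39 in old cells at 3% oxygen and at -0.08, -0.11 and -0.46 in senescent cells, with 0.44, -0.16 and 0.23 in young cells at 3% and -0.04, -0.20 and -0.03 in young cells at 20%. The late groups did not overlap, and EBP was higher in old cells at 3% (0.74 ± 0.15, adjusted p = 0.00589), and 4 probe sets gave 0.23 to 1.09. ACAT2, the cytosolic thiolase that makes acetoacetyl-CoA, stood at 0.36, 0.16 and 0.31 in old cells at 3% and at -0.01, -0.23 and -0.17 in senescent cells (0.42 ± 0.10, adjusted p = 0.0125). In young cells it stood at -0.08, -0.18 and -0.27 at 3% and at 0.08, 0.14 and 0.01 at 20%. Its late call was lost without senescent replicate 2 or old replicate 1 (adjusted p = 0.0571 and 0.0544). DHCR7, the last reductase of the pathway, had -0.49 ± 0.15 and was not called (adjusted p = 0.0506). With the replicate number as a block in these 6 arrays its adjusted p was 0.00761. That block uses a pairing read from these same values and stated by no label, so it cannot support a call.

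The young and the late oxygen comparisons share no arrays. Of the 8 members lower in young cells at 3% and the 6 lower in old cells at 3%, 5 were in both lists (HMGCS1, MSMO1, SC5D, INSIG1 and STARD4). The same overlap was not counted over all genes, so it has no background share beside it. The other 3 of the young list, SQLE, IDI1 and NSDHL, overlapped at late passage and were not called by limma (adjusted p = 0.194, 0.30 and 0.201). Single alternatives called them lower. These were the most variable probe set for SQLE (-0.65, adjusted p = 0.00185) and IDI1 (-0.60, adjusted p = 0.0327), and array weights for NSDHL (-0.28, adjusted p = 0.0267). The other probe sets gave -0.19 to -0.04 for SQLE and -0.56 to 0.26 for IDI1. The IDI1 probe set used is of the kind that can match other transcripts. These calls of SQLE and IDI1 add no support, as their probe sets were chosen by spread over these same arrays. Of the 2 and 4 members that were higher, ABCA1 and ABCG1 were in both, again without a count over all genes. The mean of the 16 measured enzymes of the mevalonate and sterol arms was -0.07, 0.00 and -0.20 in old cells at 3% and -0.26, -0.24 and -0.13 in young cells at 3%. It was 0.11, 0.20 and -0.01 in senescent cells and 0.28, 0.26 and 0.31 in young cells at 20%. Young groups were apart on this mean. The late groups overlapped. Between same-numbered arrays, old cells at 3% less senescent cells gave -0.175, -0.195 and -0.193. No label pairs these arrays, and the pairing was read from the same values. These differences therefore add no support beyond the overlapping groups.

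**Figure D3:**
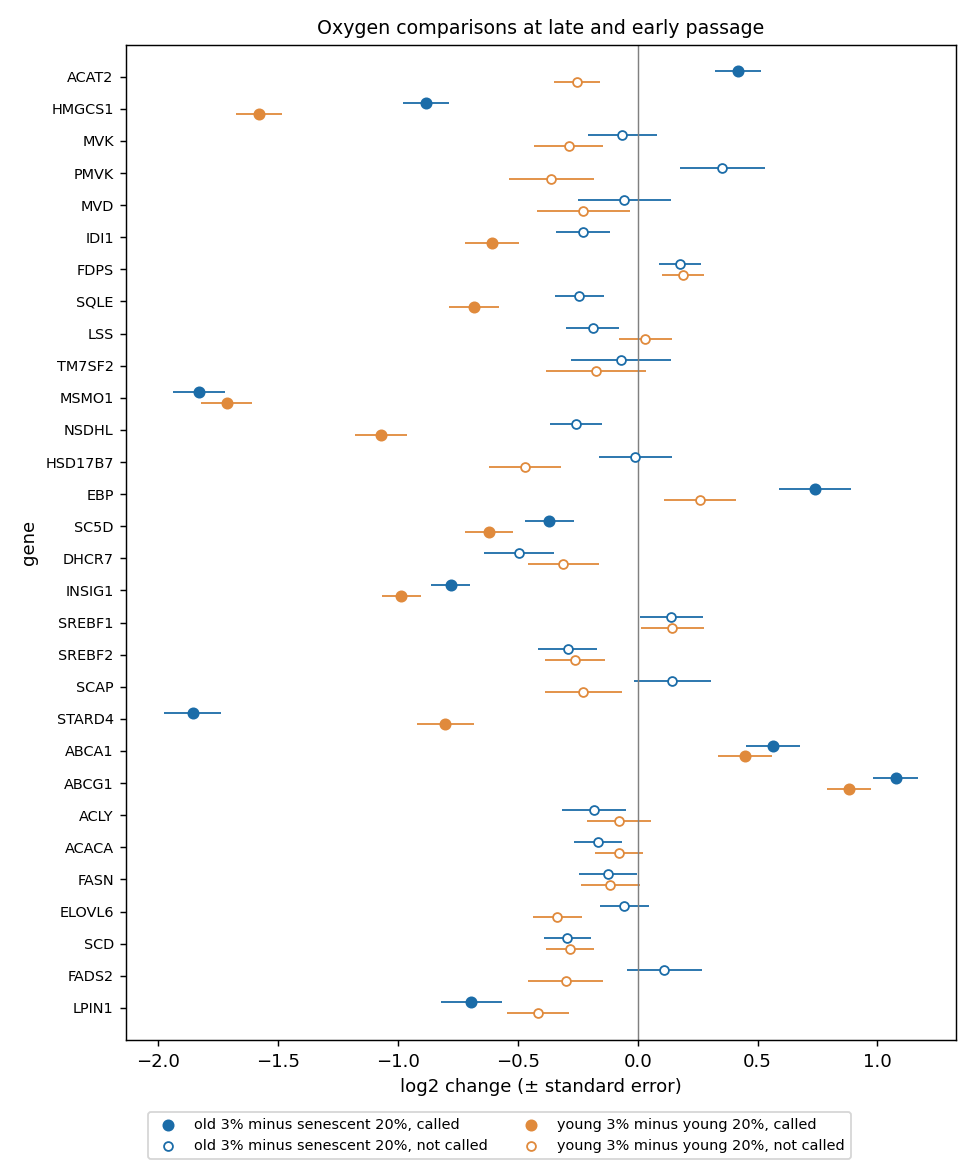
Log2 change (± standard error) of each member in old cells at 3% minus senescent cells at 20% oxygen and in young cells at 3% minus young cells at 20% oxygen, with filled points for genes called at an adjusted p under 0.05. MSMO1 lies at -1.83 late and -1.71 in young cells, HMGCS1 and NSDHL lie nearer 0 at late passage and STARD4 lies farther from 0.

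Senescent cells at 20% oxygen were next set against young cells at 20%. In the mevalonate arm 1 of 7 genes was called lower and in the sterol arm 3 of 9, and 3 in each arm were above 0. The falls were small: HMGCS1 fell 1.63-fold (-0.71 ± 0.09, adjusted p = 3.00e-04), NSDHL 1.4-fold (-0.48 ± 0.11, adjusted p = 0.0109), SQLE 1.3-fold (-0.37 ± 0.10, adjusted p = 0.0309), SC5D 1.29-fold (-0.37 ± 0.10, adjusted p = 0.0301) and INSIG1 1.26-fold (-0.34 ± 0.08, adjusted p = 0.0156). ABCG1 rose 1.38-fold (0.47 ± 0.09, adjusted p = 0.00478), with 1.26 on 1 probe set and 0.15 to 0.30 on the other 3. So 5 of 30 were lower and 1 higher, beside 7.84% and 4.67% of all genes (12.5% in all), and the median was -0.15 over the members and 0.04 over all genes. Groups did not overlap for 15 of 30, against 29.3% of all genes. This comparison shares the young arrays at 20% oxygen with the young oxygen comparison, so the 2 sets of changes are not independent.

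HMGCS1 and ABCG1 kept their calls whichever of the 12 arrays was left out. SQLE lost its call whichever of the 6 arrays compared was left out (adjusted p = 0.0507 to 0.119). SC5D was lost without senescent replicate 1, 2 or 3 or young replicate 1 or 3 (0.0651 to 0.108), INSIG1, whose 3 probe sets gave 0.11, -0.79 and -0.33, without senescent replicate 2 or young replicate 2 or 3 (0.0622, 0.0619 and 0.0563) and NSDHL without senescent replicate 3 or young replicate 2 (0.0548 and 0.0515). Quantile normalization ended the calls of SC5D and INSIG1 (0.0587 and 0.186), and the most variable probe set ended those of SC5D and NSDHL (0.0507 and 0.0691). The count of members called was 3 without senescent replicate 2, senescent replicate 3, young replicate 2 or young replicate 3. MSMO1, which differed 3.28-fold by oxygen in young cells, had -0.19 ± 0.11 here (adjusted p = 0.384), although its groups did not overlap and array weights called it (-0.24, adjusted p = 0.00847). Of the 7 fatty acid genes none was called (log2 changes -0.21 to 0.15). At an unadjusted p under 0.05 there were 0, against 4297 of all 19775 genes. ELOVL6 was called on its most variable probe set (-0.73, adjusted p = 0.0303), which was chosen by its spread over these same arrays. Array quality weights called ACACA and SCD (adjusted p = 0.02 and 0.00406), and also IDI1 and HSD17B7. These weights called 6203 of all genes here against 2474 without them, and 11 of the 30 members against 6.

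Between old and young cells at 3% oxygen 3 members were called: STARD4 was lower and ABCG1 and ACAT2 were higher, beside 0.759% of all genes lower and 0.981% higher (1.74% in either direction). STARD4 fell 2.43-fold (-1.28 ± 0.12, adjusted p = 9.60e-05) on its single probe set. ABCG1 rose 1.58-fold (0.66 ± 0.09, adjusted p = 0.00245), with 1.88 on 1 probe set and 0.10 to 0.37 on the other 3. ACAT2 rose by 0.45 ± 0.10 (adjusted p = 0.0323), a call that was lost after either rescaling of the arrays (0.0653 and 0.0654), which left 1 member higher and 1 lower. It was also lost without old replicate 1, 2 or 3, young replicate 2 or 3 at 3% oxygen, senescent replicate 3 or young replicate 1 at 20% oxygen (0.0505 to 0.135). The median over the 30 was 0.06, against 0.05 over all genes, and groups did not overlap for 8, against 15.6% of all genes. The young arrays at 3% oxygen also serve the young oxygen comparison, and the old ones the late comparison.

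Among the enzymes of the mevalonate and sterol arms other than ACAT2, none was called between old and young cells at 3% oxygen. Of the 9 sterol arm genes, 3 were at an unadjusted p under 0.05, against 2815 of all 19775 genes. HMGCS1 had -0.01 ± 0.09 (adjusted p = 0.967), and the log2 changes of the sterol arm ran from -0.30 (MSMO1, adjusted p = 0.246) to 0.35 (EBP). ABCA1 had 0.33 ± 0.11 (adjusted p = 0.217) without overlap of the groups. Its most variable probe set was called higher (0.67, adjusted p = 0.0406), and the others gave 0.47, 0.29 and -0.10. That probe set was chosen by its spread over these same arrays, so the call adds no support. Over all 5 contrasts 13 members were called at least once and 17 never. The matching count over all genes was not made, so this count has no background share beside it. The 17 were MVK, PMVK, MVD, FDPS, LSS, TM7SF2, HSD17B7, DHCR7, SREBF1, SREBF2, SCAP, ACLY, ACACA, FASN, ELOVL6, SCD and FADS2. A missed threshold with 3 arrays per group does not show that these genes were alike between groups.

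**Figure D4:**
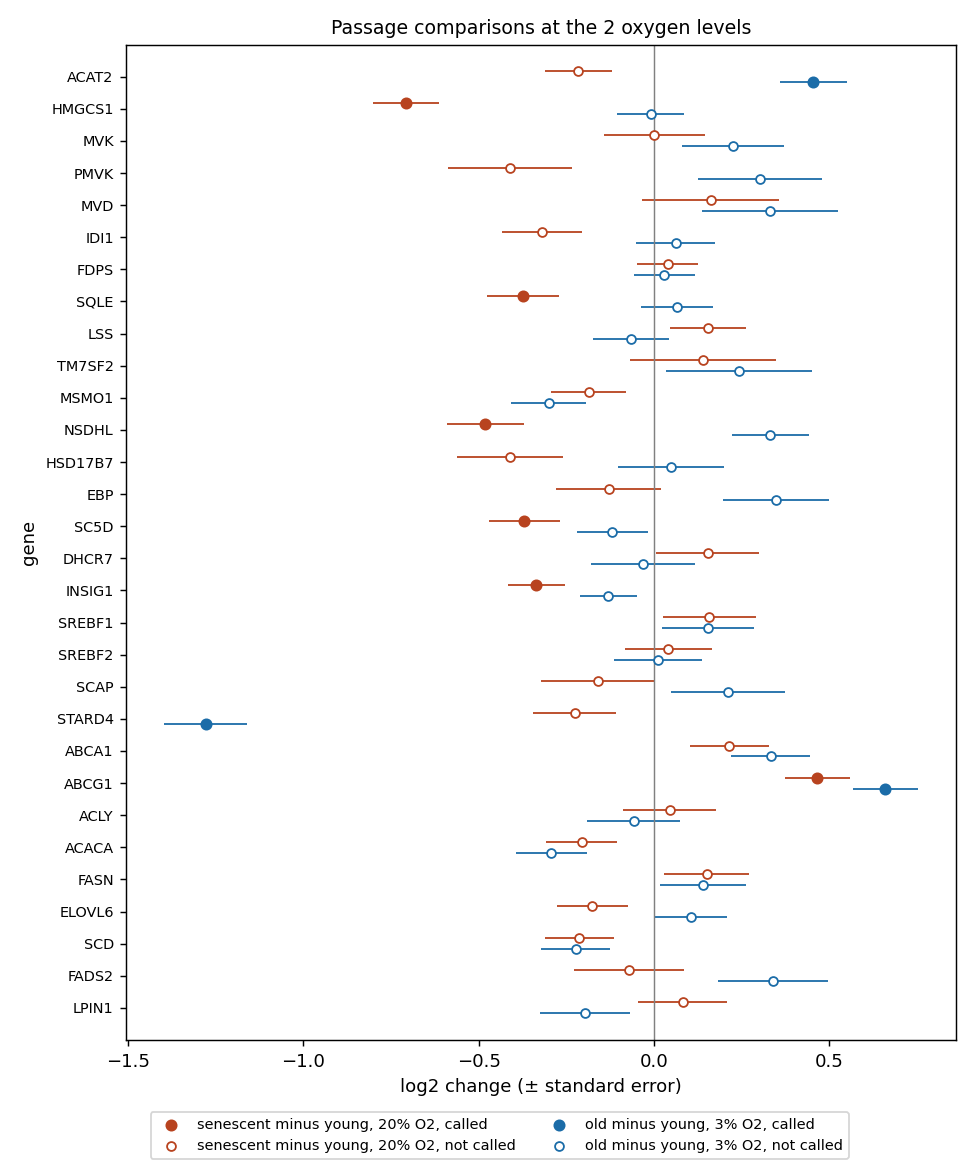
Log2 change (± standard error) of each member in senescent minus young cells at 20% oxygen and in old minus young cells at 3% oxygen, with filled points for genes called at an adjusted p under 0.05. STARD4 at 3% oxygen lies at -1.28, HMGCS1 differs between the oxygen levels, and ABCG1 is called higher in both.

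The passage changes were compared directly by their difference, 20% oxygen minus 3% oxygen, which is also the difference of the oxygen effects at early and late passage. It was called for 4 members, 3 negative and 1 positive, beside 4.37% and 2.06% of all genes (6.44% in either direction). With the most variable probe set per gene IDI1 (-0.94, adjusted p = 0.0275), INSIG1 (-0.69, adjusted p = 0.0131) and ELOVL6 (-1.05, adjusted p = 0.0455) were called as well. Those probe sets were chosen by spread over these same arrays, so their calls add no support. With array weights SQLE was called (-0.55, adjusted p = 0.0118). HMGCS1 had -0.70 ± 0.13 (adjusted p = 0.00747), with passage changes of -0.71 at 20% and -0.01 at 3%. NSDHL had -0.81 ± 0.16 (adjusted p = 0.00726), with passage changes of -0.48 at 20% and 0.33 at 3%. ACAT2 had -0.67 ± 0.14 (adjusted p = 0.00989), with passage changes of -0.22 at 20% and 0.45 at 3%. STARD4 had 1.05 ± 0.17 (adjusted p = 0.00216), with passage changes of -0.23 at 20% and -1.28 at 3%. The difference was not called for HMGCS1 after quantile normalization (-0.49, adjusted p = 0.119), nor for NSDHL on its most variable probe set (-0.95, adjusted p = 0.0563). ABCG1, higher with passage at both levels, had a difference of -0.19 (adjusted p = 0.488), and MSMO1 had 0.11 (adjusted p = 0.742).

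A list of other lipid genes gave 24 measured genes, of which 2 were higher and 0 lower between young cells at 3% and 20% oxygen, 4 and 5 at late passage, 3 and 5 in senescent cells and 1 and 0 in old cells at 3%, by limma. Of all genes, 4.96%, 6.59%, 4.67% and 0.981% were called higher in the same order. Called lower were 6.84%, 4.41%, 7.84% and 0.759%. At an unadjusted p under 0.05 there were 6, 10, 10 and 4 of the 24 in these comparisons. Of all 19775 genes, 4549, 3979, 4297 and 2815 were under it in the same order. INSIG2, the relative of INSIG1, rose 2.03-fold in young cells at 3% oxygen (1.02 ± 0.12, adjusted p = 1.11e-04) and 1.76-fold in senescent cells (0.81 ± 0.12, adjusted p = 7.67e-04), both against young cells at 20%. It had -0.07 at late passage between oxygen levels (adjusted p = 0.893). In senescent cells TMEM97, a sterol-regulated membrane protein, fell by 0.66 (SE 0.11, adjusted p = 0.00118) and the acyltransferase SOAT1, which esterifies cholesterol for storage, by 0.58 (SE 0.11, adjusted p = 0.00298). The lysosomal cholesterol exporter NPC1 fell by 0.34 in senescent cells (adjusted p = 0.0247) and rose by 0.40 in old cells at 3% (adjusted p = 0.049). The difference of the passage changes was called higher for 2 of the 24 and lower for 2, beside 2.06% and 4.37% of all genes. These were INSIG2 (1.09, adjusted p = 0.00227), NPC2 (0.50, adjusted p = 0.049), NPC1 (-0.74 ± 0.13, adjusted p = 0.00374) and SOAT1 (-0.56, adjusted p = 0.0455). Other calls between groups were ERLIN1, higher in young cells at 3% (0.37), and, in senescent cells, NPC2 (0.44), SCD5 (0.40), LBR (-0.39) and ELOVL5 (-0.36). In old cells at 3% against senescent cells, LBR (0.51), NPC1 (0.49), SOAT1 (0.46) and TMEM97 (0.36) were higher, and FADS3 (-0.81), ME1 (-0.57), SCD5 (-0.49), ACSS2 (-0.48) and NPC2 (-0.42) were lower.

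Other measures moved with oxygen as well. MKI67, a marker of cycling cells, stood at 1.13, 0.78 and 0.63 in old cells and 0.72, 0.67 and 0.56 in young cells at 3% oxygen, against -0.66, -0.90 and -0.94 in senescent cells and -1.15, -0.98 and -0.83 in young cells at 20%. Senescent and young cells at 20% oxygen overlapped on it. MKI67 thus did not set these young cells, the reference of the young oxygen and senescence comparisons, apart from senescent ones. The part of MKI67 in the lipid gene differences was not tested. Of 8 fibroblast markers 4 were lower between young cells at 3% and 20% oxygen (PDGFRA, THY1, DCN and LUM, log2 changes -1.50 to -0.51), 4 were lower in the senescent cells against young ones, and at late passage 1 was higher and 1 lower by oxygen; their part in the lipid gene differences was not tested. Of the 18 markers of adipocytes, alveolar epithelium, endothelium and immune cells that were measured, none was called in any comparison by limma, with at most 3 of the 5 adipocyte markers and 0 of the others at an unadjusted p under 0.05. RNA quality was read from the ACTB controls, as signal at the 3′ end less that at the 5′ end. This was highest on young replicate 2 at 3% oxygen (0.706, against -0.22 to 0.35 on the other arrays). With this difference as a covariate, 32 of the 33 calls of members were kept, all but that of ACAT2 between old and young cells.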

How the data were processed

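RNA of 12 samples was measured on Affymetrix arrays. The deposited values are RMA log2 signals, per the submitters' processing notes; the RMA version is not given in the sources used here, and the base 2 is assumed from RMA. Each deposited probe set also has a median of 0 over the 12 arrays (within 1e-06), so a filter on dim probes was not possible. Of 54675 probe sets, 41091 named 1 gene, 1801 several, 11721 none and 62 were controls. Symbols were updated by Entrez ID through RefSeq (GRCh38.p14; 41037 matched), and the probe sets of a gene were averaged.

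A linear model of 4 group means over the 12 arrays was fitted in limma (version 3.58.1, R version 4.3.3) with moderated variances and 8 residual degrees of freedom, and was tested on simulated data. P values were adjusted by Benjamini-Hochberg over 19775 genes, and limma's adjusted p is the one printed throughout. The members and gene lists were chosen with earlier results of these data known. Values of every array are given for the 12 called members with the largest changes, the SREBP regulators and both export pumps, and other members by change and count. Replicate numbers are shared by the 4 groups. Deviations of same-numbered senescent and old arrays correlated at 0.129, 0.519 and 0.669, while other pairs of groups included correlations down to -0.591, so the numbers were taken as pairing the senescent and old arrays alone. No label states this pairing, and it rests on these values alone. Alternatives were quantile normalization, median centring, the probe set with the largest SD, omission of flat genes, a trended robust variance, array weights, the compared groups alone, a stricter threshold, the replicate block and each array left out. The probe set with the largest SD was chosen over all 12 arrays, group differences included, so calls gained on it are not independent support. A covariate for the ACTB 3′ minus 5′ difference was chosen after seeing the data.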

Additional observations from a re-analysis of the deposited data

Results flagged for a closer look

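The change with passage differed between 20% and 3% oxygen for 4 lipid genes by limma's test of the difference. The difference was -0.67 for ACAT2 (changes of -0.22 at 20% oxygen and 0.45 at 3%), -0.70 for HMGCS1 (-0.71 and -0.01), -0.81 for NSDHL (-0.48 and 0.33) and 1.05 for STARD4 (-0.23 and -1.28). The late cells at 20% oxygen were senescent and those at 3% were not, so oxygen and senescence cannot be told apart in these differences.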

How the results depend on the processing

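Of the 33 calls of a member in a comparison, all 33 were kept with array weights, with a trended robust variance and with the replicate block. The calls kept were 32 after median centring, 32 with the ACTB covariate, 29 after quantile normalization, 29 with the probe set of largest SD, 30 without flat genes, 26 of the 29 that could be fitted with the compared groups alone, 25 at an adjusted p under 0.01 and 362 of 396 with 1 array left out. No call changed direction under these alternatives. The members called in senescent against young cells at 20% oxygen numbered 11 with array weights, 2 at an adjusted p under 0.01 and 3 to 7 with 1 array left out, against 6. Over all genes, array weights gave 6203 calls there against 2474 (3101 higher and 3102 lower, against 923 and 1551), 4137 against 2176 in old cells at 3% against senescent cells, and 2684 against 1273 for the difference of the passage changes; the cause was not tested. The stricter threshold left 1477, 162, 1412, 1305 and 624 calls for senescent against young, old against young, young cells by oxygen, late cells by oxygen and the difference. Old against young cells at 3% oxygen had 344 calls, 124 with those 6 arrays alone and 187 to 423 with 1 array left out. The replicate block over all 12 arrays gave 6, 3, 10, 11 and 4 members in the same order, and in the senescent and old arrays alone 11 members and 2842 genes; beyond DHCR7 it changed no call of a member there. The probe set with the largest SD moved several values by over 1.5 times between young cells, among them ABCG1 (2.63), INSIG1 (-1.86), IDI1 (-1.54), SQLE (-1.18), SC5D (-1.07) and ABCA1 (1.03). The rescalings moved the median change of all genes by -0.0435 to 0.0335. Dim probe sets could not be told from bright ones in centred values.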
